A study of Rattus norvegicus with 12 samples.

Results

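The striatum 2 h after a 40-minute exposure was compared with the striatum at the end of the same exposure (0 h), for carbon monoxide (CO) at 1000 ppm, CO at 3000 ppm and 5% oxygen (O2). The comparison used 6 of the 12 arrays of the series, picked by the exposure and time in their titles: the arrays at 0 h and 2 h of each exposure, which form 3 pairs and share a slide within a pair. Each array held total RNA from the striata of both sides of 1 male Sprague-Dawley rat, whose age the labels do not give, anesthetized with sodium pentobarbital and perfused with saline. A pair therefore sets 1 rat against another, and p-values measure the spread between 3 such pairs. The remaining arrays, 1 rat right after breathing air and 5 rats at 6 h or 12 h, serve as reference levels. Of 40998 probes kept, 28539 were well above background on all 6 arrays and stood for 23798 genes or unnamed transcripts, 12252 of them with a gene symbol. Levels are log2 signal minus the 75th percentile of the array, a difference is the level at 2 h minus that at 0 h of the same exposure, and 1 unit is 2-fold. Genes were ranked by agreement, the smallest of the 3 differences where all 3 had the same sign, and the 12 highest and 12 lowest with a symbol are described in full.

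Immediate early genes are transcribed within minutes of a stimulus, need no new protein synthesis, and lose their short-lived transcripts soon after it ends. They encode transcription factors such as Fos, Atf3, the Nr4a receptors and Krüppel-like factors, and brakes on the same signals such as the MAP kinase phosphatase Dusp1. In brain they respond to synaptic activity in neurons and to flow, injury and oxygen shortage in vessels, whereas slower genes, among them targets of the glucocorticoid receptor, follow later.

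The 75th percentile of the signal lay between 428.9 and 722.9 intensity units on the 6 arrays and was higher at 0 h than at 2 h in all 3 pairs. Between 72.2% and 77.8% of probes were well above background, and 0 spots were saturated. The 2 h array sat 1 position after its 0 h array on each slide, so time and position cannot be told apart within the pairs. The 14 tested markers of medium spiny neurons, the main striatal neurons, were all present, but the 5% O2 array at 0 h was poor in them: their summed level was 25.8 times the 75th percentile there, against 452 and 234 on the other 0 h arrays and 225 to 414 at 2 h. Septal and thalamic neuron markers summed to 88.1 on that array, against 3.49 and 23.1 on the other exposure arrays at 0 h. Hypothalamic peptide genes summed to 69.0 there, against 5.88 and 18.7. Choroid plexus and ependyma markers summed to 201, against 5.53 and 50.6. In tissue RNA, fewer cells of a type and less RNA per cell cannot be told apart, and the part of the tissue taken was not tested.

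No gene passed an adjusted p of 0.05 in the paired limma fit: 0 genes were called higher and 0 lower at 2 h, which is 0.0% of 23798 each. At an unadjusted p of 0.05, 1396 genes (5.87%) were higher and 1116 (4.69%) lower. The share higher among these was 55.6%, and it was 43.7% with median scaling, 46.1% with quantile normalization, 43.4% in the deposited series table and 70.4% with normexp background correction. At least 2-fold in every pair, 13 genes or transcripts (0.0546%) were higher and 14 (0.0588%) lower, 4 and 10 of them with a symbol. For a single gene, the exact sign-flip test of 3 pairs cannot go below a two-sided p of 0.25. The text therefore gives values, and no member below passed the test across all genes unless an alternative fit is named.

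**Figure D1:**
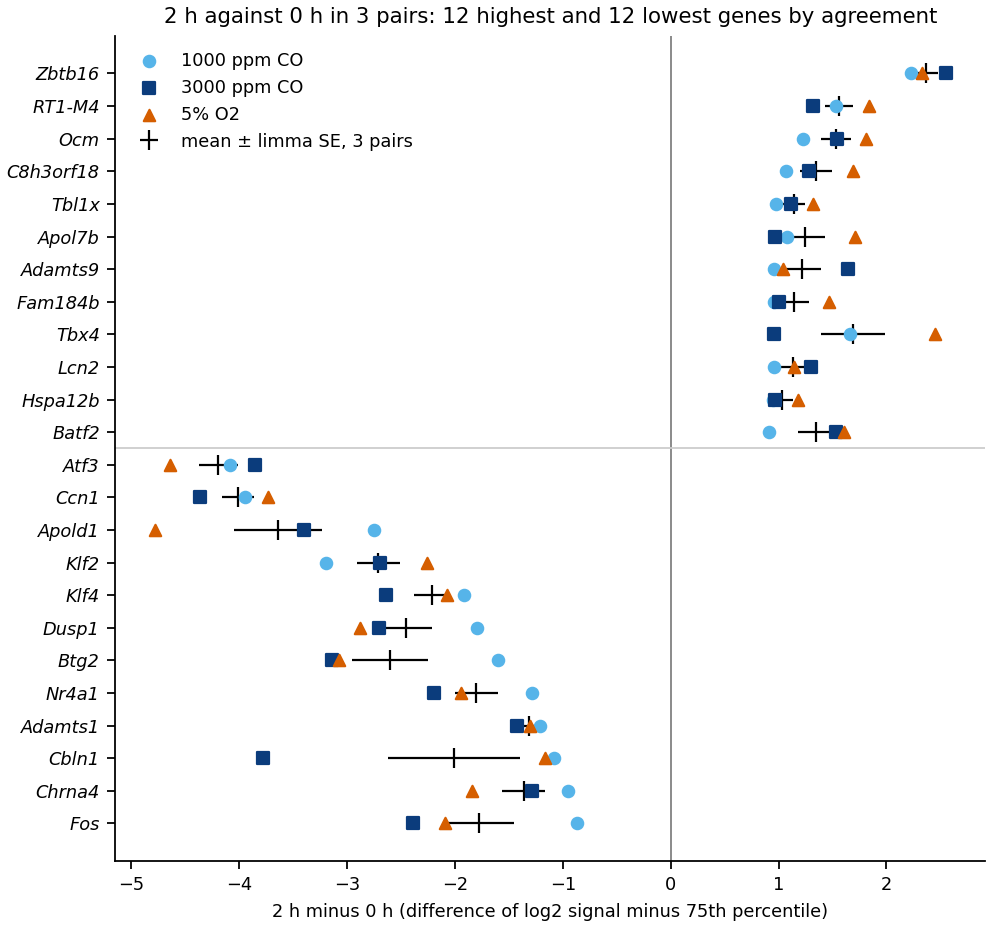
Difference of the 2 h and 0 h arrays (log2, horizontal) for the 12 genes highest and the 12 lowest by agreement (vertical), with 1 point per exposure and the mean ± limma standard error of 3 pairs in black. The points of Ccn1 lie between -4.36 and -3.73 and those of Zbtb16 between 2.23 and 2.55, whereas the 3000 ppm CO point of Cbln1, at -3.78, lies far from its other points.

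The genes that stood lower at 2 h were led by immediate early genes. Ccn1, which encodes a secreted matrix-associated growth regulator, stood, in the order 1000 ppm CO, 3000 ppm CO and 5% O2 kept throughout, at 1.35, 0.99 and 1.18 at 0 h and at -2.59, -3.38 and -2.55 at 2 h. All 3 arrays at 0 h were far above all 3 at 2 h, and the gap was many times the spread within either time. The mean difference was -4.01 ± 0.15 (SE, 3 pairs), or 16.1-fold lower, with an adjusted p of 0.0969 by limma. A second Ccn1 probe differed by -3.34, -2.15 and -3.25. Ccn1 was the only gene called with normexp correction (adjusted p = 0.0253) or with the position term over 12 arrays (adjusted p = 0.00636), and was also called in the additive model of exposure and time over the 12 arrays (adjusted p = 0.00621), all by limma.

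Atf3, a stress-induced transcription factor of the ATF family, was at -0.25, 1.5 and 1.74 at 0 h and at -4.33, -2.36 and -2.90 at 2 h. The times did not overlap, although the 1000 ppm CO arrays were the lowest at both. The mean difference was -4.19 ± 0.18 (SE, 3 pairs), or 18.2-fold lower (limma adjusted p = 0.0969). Apold1, which endothelial cells induce early after stress, was at 1.77, 2.52 and 3.39 at 0 h and at -0.97, -0.88 and -1.38 at 2 h. The 5% O2 pair had both the highest Apold1 array at 0 h and the lowest at 2 h, which gave a mean difference of -3.64 ± 0.41 (SE, 3 pairs).

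Klf2, a flow-responsive transcription factor of endothelium, stood at -0.08, -0.44 and -1.15 at 0 h and at -3.27, -3.13 and -3.41 at 2 h. Its relative Klf4 stood at 0.89, 1.68 and 1.00 at 0 h and at -1.03, -0.97 and -1.07 at 2 h. Both were nearly level across the 3 arrays at 2 h (SD 0.14 and 0.05) and did not overlap with 0 h. The mean differences were -2.71 ± 0.20 and -2.21 ± 0.17 (SE, 3 pairs). The additive model over 12 arrays called Klf2 and Klf4 lower (limma adjusted p = 0.00831 and 0.0117). With Ccn1 they made up 3 of its 4 calls, and XM_213050, which the file describes as similar to Klf4, was the other (adjusted p = 0.00621). That transcript differed by -1.86, -2.50 and -2.13, and whether its probe also binds Klf4 RNA was not tested.

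Among the brakes on signalling, Dusp1 was at -0.56, 0.08 and 0.20 at 0 h and at -2.34, -2.61 and -2.68 at 2 h. Btg2, an antiproliferative factor that promotes mRNA deadenylation, was at 1.45, 3.06 and 3.09 at 0 h and at -0.15, -0.08 and 0.02 at 2 h. In both genes the 1000 ppm CO array was the lowest at 0 h while the 2 h arrays nearly coincided. That pair had the smaller difference (-1.79 against -2.70 and -2.88 for Dusp1, -1.60 against -3.14 and -3.07 for Btg2). For Btg2 this came from the 0 h side. For Dusp1 it came mostly from that side, as its 1000 ppm CO array was also the highest at 2 h.

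Nr4a1, an orphan nuclear receptor, was at 4.09, 4.20 and 3.73 at 0 h and at 2.81, 2.00 and 1.79 at 2 h. Fos, the AP-1 subunit, was at 0.02, 1.71 and 0.93 at 0 h and at -0.85, -0.67 and -1.17 at 2 h. Neither gene overlapped between the times, and the mean differences were -1.80 ± 0.20 and -1.78 ± 0.33 (SE, 3 pairs). Adamts1, a secreted metalloprotease, differed by -1.21, -1.42 and -1.30. Its 3 differences were among the most even of the 24 genes, but its levels overlapped between the times and its mean difference of -1.31 was -0.53 with normexp. In all, 9 of the 12 lowest genes and 8 of the 12 highest had non-overlapping times, which 2.58% of all genes tested had in the lower and 4.71% in the higher direction. These members were ranked on the same differences, so nothing is read from that count.

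Against the air array, 8 of the 12 lowest genes (Atf3, Ccn1, Apold1, Klf2, Klf4, Dusp1, Btg2 and Nr4a1) were above air on all 3 arrays at 0 h. At 2 h, Klf2, Klf4, Dusp1, Nr4a1, Adamts1 and Fos were below air on all 3 arrays, and Apold1 and Btg2 above it. Klf2 minus air was -1.12, -0.98 and -1.26 at 2 h, whereas Btg2 minus air was 0.06, 0.13 and 0.23. The air array shared a slide and scan session with the 3000 ppm CO pair and not with the other pairs. Only 1 rat breathed air, so these distances have no replicate check and share that array. The 12 genes were also ranked on 2 h minus 0 h, which favours high levels at 0 h and low levels at 2 h. The share of all genes above or below air is not given here, so nothing is read from these counts.

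**Figure D2:**
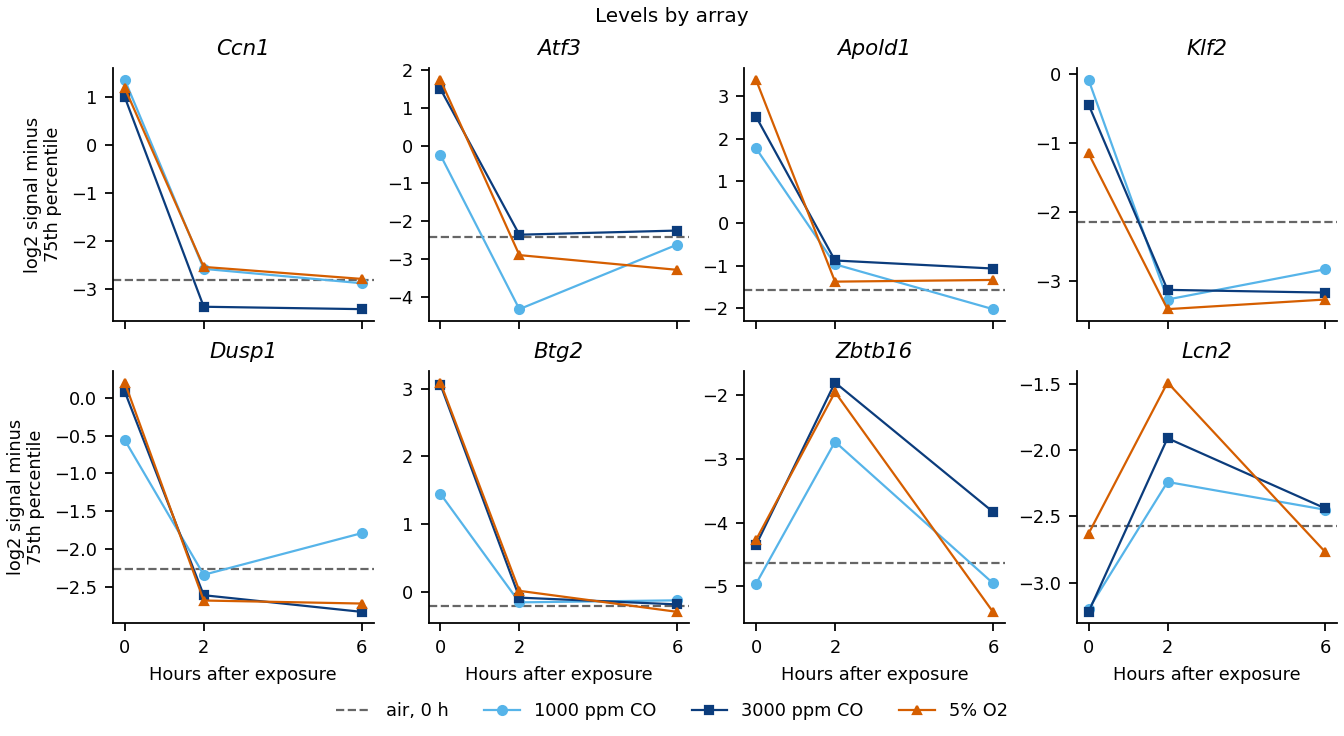
Level (log2 signal minus the 75th percentile of the array, vertical) of 8 genes at 0, 2 and 6 h after exposure (horizontal), with 1 rat per point and the air array as a dashed line. Ccn1, Atf3, Apold1, Klf2, Dusp1 and Btg2 are high at 0 h and low at 2 h after all 3 exposures. Of the times shown, Zbtb16 and Lcn2 are highest at 2 h. At 12 h, not shown, Lcn2 was at -1.56 after 1000 ppm CO (-2.24 at 2 h) and at -4.98 after 3000 ppm CO (-1.91 at 2 h).

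Early genes were also listed by role. These lists hold genes ranked above on the same differences and were chosen with earlier results of these data known. Their counts therefore describe the members and are no separate support. Of 15 tested vascular and growth factor early genes, 8 were lower in all 3 pairs and 0 higher, where 15.5% of all genes were lower and 22.2% higher in all 3. Each list count below is to be set beside these shares. The list's median difference was -0.54, against 0.03 for all genes. Besides the genes above it held Ier2 (-0.82, -1.48 and -1.65), a nuclear early protein, Klf6 (-0.58, -0.77 and -1.22) and the growth factor Hbegf (-0.11, -0.53 and -0.98). Ccn2, the closest relative of Ccn1 on the list, differed by -0.43, 0.88 and -0.26 and did not follow it. Without the 1000 ppm CO pair, 9 were lower and 5 higher in both pairs left. With no filter on dim probes, which brings in 4 more genes, the median was 0.04, and it was -0.34 with the filter on 3 of 6 arrays and -0.32 with normexp or without the 5% O2 pair.

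Of 12 tested AP-1, ATF and Myc factors, 9 were lower in all 3 pairs and 1, Myc, higher, with a median of -0.56 (-0.31 with normexp). Jun differed by -0.75, -1.18 and -1.34, Junb by -0.77, -1.37 and -0.92 and Fosl1 by -1.41, -0.53 and -0.52. Jund, the AP-1 subunit with the most constant expression, differed by -0.10, 0.35 and -0.20. Cebpb, another member, likewise had no common direction (-0.15, 0.24 and 0.07), and Myc was higher in each pair (0.21, 0.41 and 0.23).

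Of 22 tested feedback and mRNA decay genes, 10 were lower and 4 higher in all 3 pairs, with a median of -0.23. The median was -0.14 without the 3000 ppm CO pair, -0.13 without the 5% O2 pair, -0.14 with normexp and -0.15 with the mean over a gene's probes. The MAP kinase phosphatases differed in direction: Dusp5 was at -0.52, -0.91 and -0.46 and Dusp6 at -0.46, -0.34 and -1.05, whereas Dusp2 was at 0.25, 1.68 and 1.60. Spry4, a receptor tyrosine kinase inhibitor, was lower (-0.19, -0.68 and -1.11) and its functional relative Spred2 higher (0.46, 0.35 and 0.99). Zfp36, which binds AU-rich elements and speeds mRNA decay, was well above background on 4 of the 6 arrays and was not tested.

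Of 17 tested early genes of neuronal activity, 4 were lower and 2 higher in all 3 pairs, with a median of -0.16. Besides Nr4a1, the salt-inducible kinase gene Sik1 was lower in each pair (-0.44, -1.19 and -1.36). The zinc finger genes Egr2 (-0.57, -1.68 and 1.59) and Egr4 (-0.20, -0.38 and 2.01) and the synaptic gene Arc (-0.46, -0.82 and 0.93) were lower after CO and higher after 5% O2. In that pair the median difference of the medium spiny neuron markers was 3.23, against -0.11 and 0.43 in the CO pairs, and their part in these differences was not tested. Without the 5% O2 pair, 10 of the 17 were lower in both pairs left. Without the 1000 ppm CO pair the list's median was 0.03.

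Promoters are shown for the 6 of the 12 lowest genes that carry the letters TGACG, the core letters of the cAMP response element, in the 250 bases before the annotated start. The sequences are from RefSeq on the rat build GRCr8, in the direction of the gene, with TGACG (or its complement CGTCA), the full element TGACGTCA and the TATA box letters TATAAA in capitals. Dusp1 and Btg2 hold the full element, and Ccn1, Apold1 and Adamts1 hold both TGACG and TATAAA.
Ccn1 promoter, chr2:237225690-237225939, minus strand: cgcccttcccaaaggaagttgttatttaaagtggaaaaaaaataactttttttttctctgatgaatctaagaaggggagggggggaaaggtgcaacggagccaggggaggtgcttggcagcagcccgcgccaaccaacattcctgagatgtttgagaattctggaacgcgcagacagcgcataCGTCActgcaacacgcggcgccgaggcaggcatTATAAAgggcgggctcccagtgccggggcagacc
Apold1 promoter, chr4:169552349-169552598, plus strand: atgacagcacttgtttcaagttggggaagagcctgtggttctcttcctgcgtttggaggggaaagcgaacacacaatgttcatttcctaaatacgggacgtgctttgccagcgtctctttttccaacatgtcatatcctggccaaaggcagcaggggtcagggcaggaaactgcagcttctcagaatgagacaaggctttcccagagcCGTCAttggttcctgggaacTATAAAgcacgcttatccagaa
Dusp1 promoter, chr10:17184603-17184852, plus strand: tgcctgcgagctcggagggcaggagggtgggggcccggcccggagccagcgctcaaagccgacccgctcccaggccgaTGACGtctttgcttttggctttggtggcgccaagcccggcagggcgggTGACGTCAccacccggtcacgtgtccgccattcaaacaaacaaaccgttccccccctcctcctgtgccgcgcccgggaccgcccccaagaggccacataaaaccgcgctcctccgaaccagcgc
Btg2 promoter, chr13:48087691-48087940, minus strand: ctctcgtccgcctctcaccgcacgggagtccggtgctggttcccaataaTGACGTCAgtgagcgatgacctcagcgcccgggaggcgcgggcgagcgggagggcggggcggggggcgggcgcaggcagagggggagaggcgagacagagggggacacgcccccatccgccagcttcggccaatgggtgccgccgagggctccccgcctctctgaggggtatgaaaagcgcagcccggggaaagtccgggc
Nr4a1 promoter, chr7:134259888-134260137, plus strand: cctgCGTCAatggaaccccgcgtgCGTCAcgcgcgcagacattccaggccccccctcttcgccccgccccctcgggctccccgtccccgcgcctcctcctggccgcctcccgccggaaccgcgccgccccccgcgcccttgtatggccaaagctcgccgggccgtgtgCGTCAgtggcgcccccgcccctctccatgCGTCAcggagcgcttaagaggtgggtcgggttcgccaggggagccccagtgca
Adamts1 promoter, chr11:38427385-38427634, minus strand: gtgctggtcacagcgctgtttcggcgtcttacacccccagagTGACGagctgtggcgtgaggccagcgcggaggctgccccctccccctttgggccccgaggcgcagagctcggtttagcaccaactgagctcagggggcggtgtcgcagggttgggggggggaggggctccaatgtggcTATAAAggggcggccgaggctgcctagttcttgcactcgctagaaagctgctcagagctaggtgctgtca

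Of the 12 lowest genes, 8 had a promoter entry (not Atf3, Klf2, Cbln1 and Fos), of which 6 held TGACG on either strand and 2 held TGACGTCA. Of all 27457 promoters, 19.0% held TGACG and 1.7% TGACGTCA, and 10 of the 12 highest genes had an entry, of which 1, Tbx4, held TGACG. The 8 promoters had a median GC content of 67.0%, against 52.0% for all, and 69.2% of the 13 promoters of cholesterol synthesis genes held TGACG as well. TGACG was thus frequent in promoters of other genes too, and a match is a description of the sequence only.

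The genes that stood higher at 2 h were led by Zbtb16, a zinc finger repressor known as a glucocorticoid target. Its level was -4.96, -4.35 and -4.27 at 0 h and -2.73, -1.80 and -1.95 at 2 h. All 2 h arrays lay above all 0 h arrays, with a mean difference of 2.37 ± 0.11 (SE, 3 pairs), or 5.17-fold, and a limma adjusted p of 0.0969. With normexp background correction the mean difference was 1.21 (limma adjusted p = 0.357). The tested probe maps to chr8:51934505-51934564 on rn4 and reads the minus strand, like the second Zbtb16 probe 156.76 kb away (chr8:52091263-52091322). The second probe was well above background on 4 of 6 arrays and differed by 1.69, 2.03 and 2.03. Exon positions on rn4 were not used here.

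The 3 unnamed transcripts nearest to the tested Zbtb16 probe also differed by at least 2.13 in every pair. TC608617, 5.38 kb away on the same strand, differed by 2.56, 3.23 and 2.93. BF548548, 7.94 kb away on the same strand, differed by 2.17, 2.81 and 2.63. CB327764, 7.61 kb away and annotated to the opposite strand, differed by 2.13, 3.19 and 2.85. Each had non-overlapping times, and together they made up 3 of the 9 transcripts without a symbol that were at least 2-fold higher in every pair. A probe between the 2 Zbtb16 probes, 50.42 kb from the tested one, was not well above background on any of the 6 arrays.

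Another of these 9 had its probe near that of a gene of the oxygen response. TC612592, which the file describes as inhibitory PAS domain protein, was at -2.71, -3.09 and -3.32 at 0 h and at -0.87, -0.16 and 0.13 at 2 h, with differences of 1.85, 2.93 and 3.45. Its probe (chr1:77373270-77373329, minus strand, rn4) lies 4.28 kb from the tested probe of Hif3a, an inhibitory subunit of the hypoxia-inducible factors, on the same strand. The Hif3a probe differed by -0.13, 0.33 and 0.02. Whether the TC612592 probe reads a transcript of Hif3a was not tested, so these values describe 1 Hif3a probe and not every Hif3a transcript. Neighbouring probes for Ppp5c, Ccdc8 and 2 unnamed transcripts, 13.43 to 50.25 kb away, differed by between -0.51 and 0.28. The large difference was seen in 1 of the 7 probes of this stretch that were well above background.

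**Figure D3:**
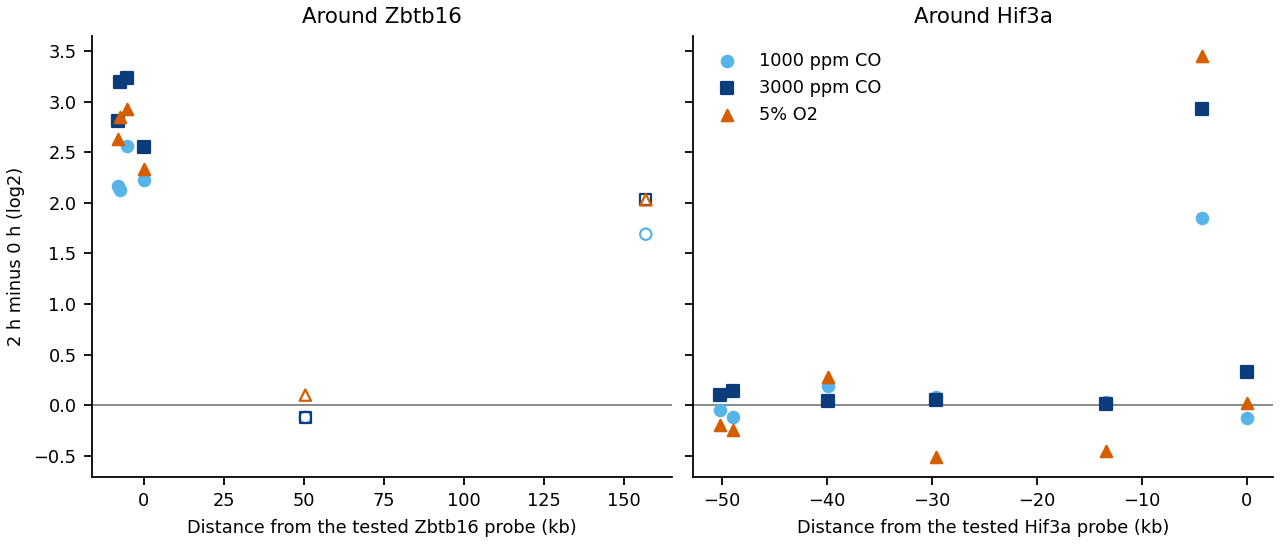
Difference of 2 h and 0 h (log2, vertical) of every probe around Zbtb16 (left) and Hif3a (right) against distance from the gene's tested probe in kb (horizontal), with 1 point per exposure and open symbols for probes not well above background on all 6 arrays. The 4 filled probes at Zbtb16 lie between 2.13 and 3.23, and at Hif3a the probe at -4.28 kb lies between 1.85 and 3.45, above its neighbours.

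Genes of vessels and secreted proteins were also among the 12 highest. Hspa12b, an endothelial member of the Hsp70 family, was at -1.11, -1.02 and -1.53 at 0 h and at -0.16, -0.05 and -0.35 at 2 h. Its second probe differed by 0.93, 0.86 and 1.22, and the unnamed transcript TC627380, 1.46 kb away on the same strand, by 1.04, 1.31 and 1.03. Lcn2, a secreted siderophore-binding protein of the acute phase, was at -3.20, -3.22 and -2.63 at 0 h and at -2.24, -1.91 and -1.49 at 2 h. Adamts9, a metalloprotease, differed by 0.96, 1.64 and 1.04. None of the 3 overlapped between the times, and their mean differences were 1.03 ± 0.10, 1.13 ± 0.11 and 1.22 ± 0.17 (SE, 3 pairs). For Lcn2 the difference was 0.73 with normexp and 0.25 in the 12-array model with position.

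The first gene outside the 12 highest was Lims2, which differed by 0.87, 1.21 and 1.41. Some further rises are named here after their values were seen. They are a selection and not the next ranks. The transcription factor Sox18 differed by 0.82, 1.13 and 2.12. The endothelial nitric oxide synthase gene Nos3 differed by 0.84, 1.06 and 0.70. The matrix cross-linking enzyme gene Lox differed by 1.45, 2.08 and 0.76. Of the 14 tested endothelium and pericyte markers, 2 were higher and 4 lower in all 3 pairs, where 22.2% of all genes were higher and 15.5% lower. The count higher was 5 without the 1000 ppm CO pair and 4 without the 3000 ppm CO pair. With normexp 4 were higher and 2 lower. Their summed level was 17.4 to 20.9 times the 75th percentile at 0 h and 18.3 to 23.7 at 2 h. Cldn5, Flt1 and Cdh5 differed by at most 0.37 in any pair.

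The other 8 of the 12 highest genes were grouped by their profile over the 12 arrays. The group holds Ocm and those of the 12 that correlated with it at r of at least 0.8. They were Ocm (oncomodulin, a calcium-binding protein), RT1-M4 (a class I histocompatibility gene), Tbl1x (a subunit of corepressor complexes), Tbx4 and Batf2 (transcription factors), Apol7b (an apolipoprotein L), C8h3orf18 and Fam184b. Ocm was at -2.12, -1.46 and -2.34 at 0 h and at -0.89, 0.08 and -0.53 at 2 h, with a mean difference of 1.53 ± 0.14 (SE, 3 pairs). RT1-M4 was at -5.13, -4.24 and -5.05 at 0 h and at -3.60, -2.93 and -3.21 at 2 h, and likewise did not overlap. Over the 12 arrays the 8 genes correlated with one another at r = 0.77 to 1.00, and the other 4 with these 8 at r = 0.28 to 0.85. The cut on r partly sets these ranges, so nothing is read from them. The ranges overlap: Hspa12b correlated with Tbx4 at r = 0.85 and with Tbl1x at r = 0.77. These values describe arrays that share slides and scan sessions. With normexp correction the mean difference of RT1-M4 was 0.67.

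The profile of the 8 was not one of time alone. The mean of the 8 genes, each centred on its 12 arrays, was 0.68, 1.69 and 1.22 at 2 h, but it was also 1.67 at 6 h after 3000 ppm CO and -2.30 at 6 h after 1000 ppm CO. Of 198 genes or transcripts that followed this mean at r above 0.9, 26.8% had a symbol, against 51.5% of all genes tested. For Tbl1x a second probe, also well above background on all 6 arrays, differed by -0.43, -0.14 and 0.07 where the tested one differed by 0.98, 1.12 and 1.32. For Tbx4 a second probe was not well above background on any of the 6 arrays. What set this profile was not tested.

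**Figure D4:**
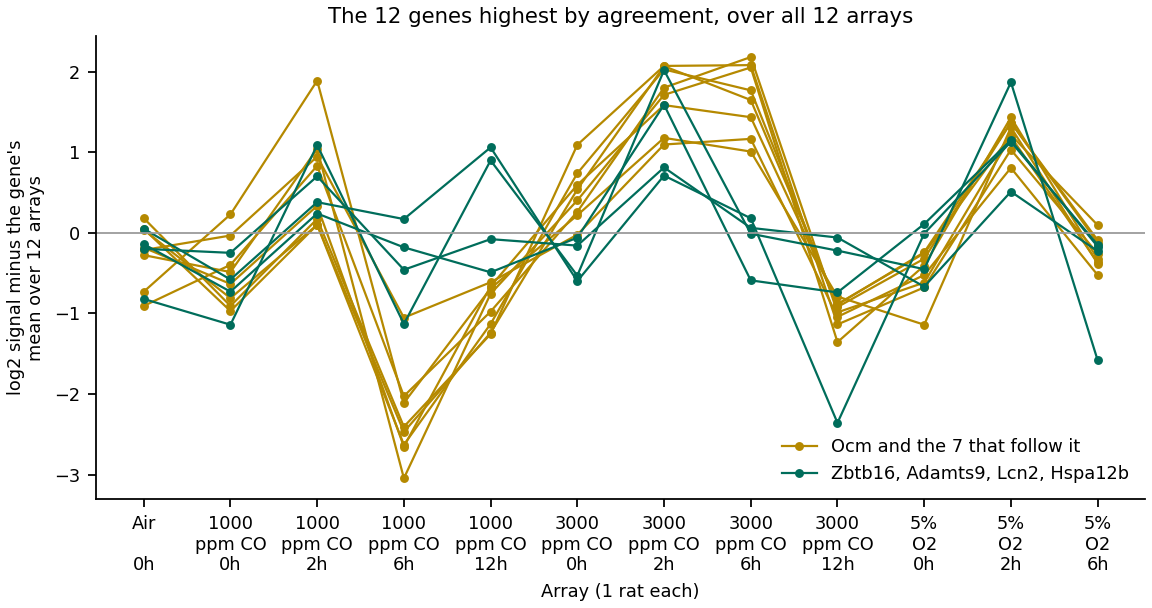
Level of the 12 genes highest by agreement, minus the gene's mean over 12 arrays (log2, vertical), on each array (horizontal, 1 rat each). The 8 genes grouped by their correlation with Ocm (ochre) have a mean of -2.30 at 6 h after 1000 ppm CO. There Zbtb16, Adamts9, Lcn2 and Hspa12b (green) have a mean of -0.40. The lowest of these, Zbtb16, lies near the highest of the 8.

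Among 20 tested glucocorticoid-induced genes, 7 were higher and 4 lower in all 3 pairs, with a median of 0.11. Of all genes tested, 22.2% were higher and 15.5% lower in all 3. The chaperone-associated gene Fkbp5 differed by 0.16, 1.28 and 2.40, the Krüppel-like factor Klf9 by 0.16, 0.70 and 1.00 and the metallothionein Mt2A by 0.28, 1.02 and 0.78. These 3 were higher in every pair, least after 1000 ppm CO. Sgk1 (-1.64, -0.20 and 0.48), Pdk4 (-1.54, 0.04 and 1.17) and Tsc22d3 (-0.31, 0.62 and 0.80) were lower after 1000 ppm CO and mostly higher after the other exposures. Gpd1 was lower throughout (-0.80, -1.12 and -1.41). The list's medians by pair were -0.15, 0.31 and 0.40, and without the 1000 ppm CO pair 12 of the 20 were higher in both pairs left, with a median of 0.30, while without the 3000 ppm CO pair the median was -0.01. The difference between exposures was not tested, as each has 1 pair.

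Of 25 tested hypoxia-inducible genes, 10 were higher and 1 lower in all 3 pairs, with a median of 0.09. The shares of all genes tested were 22.2% higher and 15.5% lower. The glucose transporter gene Slc2a1 was higher by 0.41, 0.50 and 0.65 and the lactate exporter gene Slc16a3 by 0.40, 0.86 and 0.40. Neither overlapped between the times, but the glycolytic enzymes Pgk1, Aldoa and Pdk1 differed by at most 0.46 either way. Ddit4, an inhibitor of mTORC1, was the 1 gene lower in all 3 pairs (-0.89, -0.53 and -0.73). The vasodilator peptide gene Adm differed by 0.52, -0.16 and -2.22, lowest in the 5% O2 pair. Without that pair, 14 of the 25 were higher in both pairs left, with a median of 0.17. Without the 1000 ppm CO pair 5 were lower, and without the 3000 ppm CO pair 4 were lower.

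Cholesterol synthesis and heat shock genes were mostly lower by small amounts. Of 17 tested cholesterol synthesis genes, 13 were lower and 0 higher in all 3 pairs, with medians of -0.18, -0.18 and -0.23. Idi1, an isomerase of the isoprenoid steps, differed by -0.26, -0.27 and -0.23, and its levels overlapped between the times. Insig1, a sterol-sensing regulator of the pathway, differed by -0.28, -0.25 and -0.29. The count was 13 or 14 of 17 under each of the scalings tried.

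Of 20 tested heat shock chaperones, 11 were lower and 1 higher in all 3 pairs, with a median of -0.17. Hsp90aa1 differed by -0.23, -0.26 and -0.32 and the cochaperone Fkbp4 by -0.18, -0.36 and -0.46. The inducible Hspa1b differed by -0.27, -0.22 and -0.53, while Bag3, a cochaperone of the stress response, was the 1 higher gene (0.15, 0.21 and 0.54). The largest single difference in the list was -0.87 for Cryab after 3000 ppm CO. These differences are small beside those of the early genes, and 4 of the 16 promoters of this list, Hspa8, Hspd1, Hspe1 and Hsph1, held the letters of the heat shock element on either strand, against 0.597% of all.

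Of 21 unfolded protein and integrated stress genes, 7 were lower and 1 higher in all 3 pairs, with a median of -0.14. The counts depended on the pairs included. In the 1000 ppm CO pair 13 of the 21 were higher, and without that pair the count lower rose to 13. Without the 3000 ppm CO pair 5 were higher, and without the 5% O2 pair 3 were higher. Ppp1r15a, a phosphatase subunit that restores translation after stress, differed by -0.16, -0.80 and -1.07. Mthfd2, a mitochondrial folate enzyme, differed by -0.58, -0.37 and -0.38. Neither overlapped between the times.

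All 14 medium spiny neuron markers were higher at 2 h in the 3000 ppm CO and 5% O2 pairs and 4 in the 1000 ppm CO pair. The dopamine receptor gene Drd1 differed by -0.16, 0.29 and 3.78. The 9 tested septal and thalamic neuron markers had medians of 0.05, -1.91 and -1.70, and their summed level was 3.49 to 88.1 at 0 h and 2.76 to 23.3 at 2 h. Cbln1, a synapse-organizing protein, and Chrna4, a nicotinic receptor subunit, were among the 12 lowest genes and overlapped between the times. Cbln1 differed by -1.08, -3.78 and -1.16 and Chrna4 by -0.95, -1.28 and -1.84. The part of these neurons in both genes was not tested.

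The 12 oligodendrocyte markers were lower in 7 cases and higher in 0 in all 3 pairs, with medians of -0.06, -0.78 and -0.07, so that the 3000 ppm CO pair carried most of the difference. Blood cell markers had medians of 0.20, 0.28 and 0.50, and the globin gene Hbb differed by 0.50, 0.23 and 2.50 in these saline-perfused brains. The 9 choroid plexus and ependyma markers were all higher after 1000 ppm CO and 5% O2 (medians 1.34 and 1.08) and all lower after 3000 ppm CO (-1.08). The gene for the transport protein transthyretin, Ttr, differed by 1.59, -2.34 and 1.08.

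**Figure D5:**
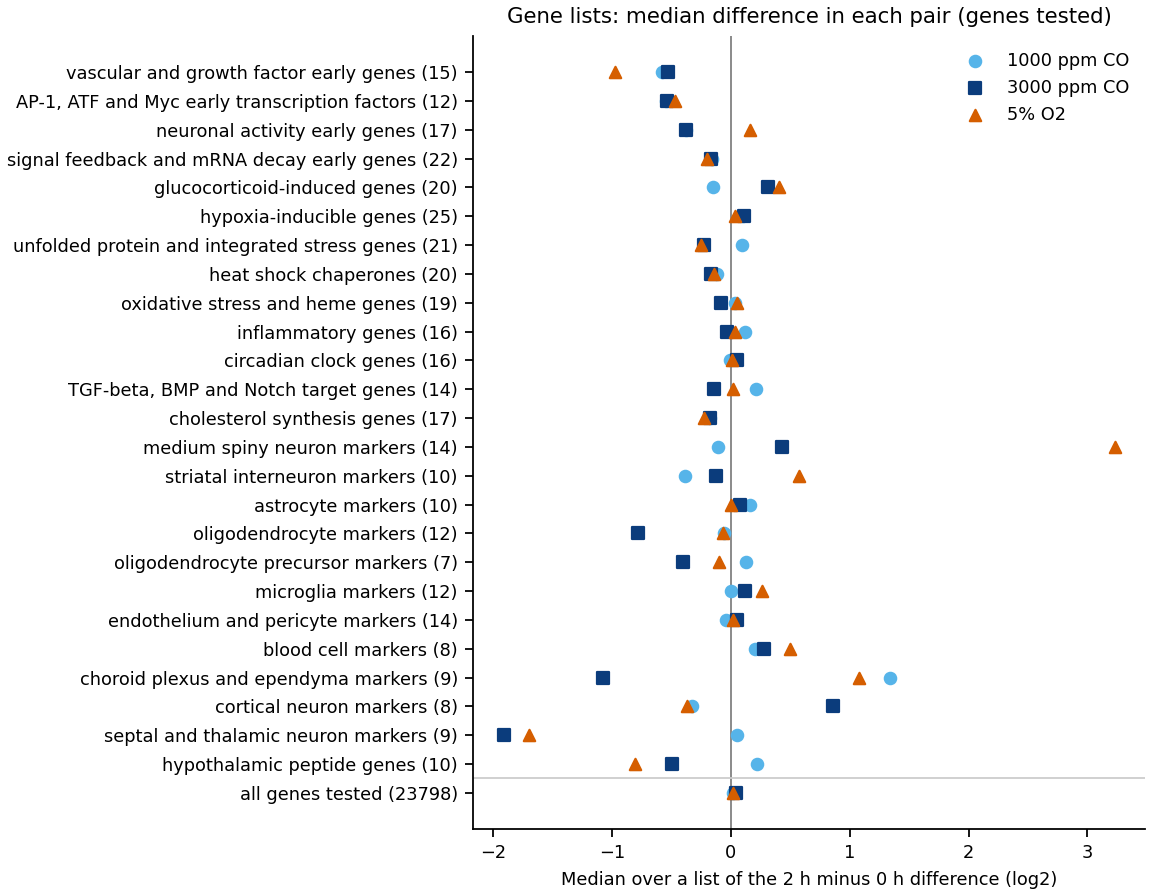
Median difference of 2 h and 0 h (log2, horizontal) over the tested genes of each list (vertical, number tested in brackets), with 1 point per exposure and all genes tested at the bottom. The first 2 early gene lists lie between -0.98 and -0.47 in every pair, the cholesterol list between -0.23 and -0.18, and the marker lists of neurons and choroid plexus spread from -1.91 to 3.23.

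Some transcripts were flagged well above background at 1 time only. Of 35175 genes or transcripts, 7 were well above background on all 3 arrays at 0 h and on none at 2 h, and 28 the reverse. The 7 hold no gene symbol, but AA817984 among them lies 0.98 kb from the Dusp1 probe on the opposite annotated strand (chr10:16945321-16945380, rn4) and was at least 2.57-fold higher at 0 h. The 28 include 5 symbols: Cdh26, a cadherin, at least 1.89-fold higher at 2 h, Pole, a DNA polymerase subunit, at least 1.44-fold, Zswim2 at least 1.21-fold, Sh3rf1 at least 1.20-fold and Fpgs at least 1.16-fold. Each bound sets the bright mean against the mean, over the dim arrays, of the higher of the probe's own signal and the lowest signal called well above background on that array. The flag can change on a small difference near that lowest signal. Pole was at -5.17, -5.39 and -5.69 at 0 h and at -5.02, -4.88 and -4.77 at 2 h. It was also well above background on the air array.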

How the data were processed

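Total RNA was hybridized to 1-colour (Cy3) rat arrays, and the deposited scanner output was made by the authors with Agilent Feature Extraction 10.7.3.1, per the file headers and the submitters' processing notes. The processed signal is an intensity that is background-subtracted and detrended within each array per the file headers, and the mean and background signals are raw intensity values. The deposited series table holds log2 values of the same arrays centred near each array's median, with scaling otherwise not given in the sources used here. The background flags are other values, 0 or 1, per the file headers. Probe positions are those of rn4 per the file headers.

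From the 41012 probes, 14 without a usable spot on some array were dropped. The log2 processed signal minus the array's 75th percentile was used, and a gene took 1 probe that was well above background on all 6 arrays. Of the probes, 17767 were named by accession, 2968 by symbol and 542 by synonym, and 19721 kept the name in the file. Differences were tested with limma 3.58.1 in R 4.3.3, with exposure as a block and Benjamini-Hochberg adjustment over all 23798 genes, and the procedure was tested on simulated data. Tables and figures were made with Python 3.11.15, numpy 2.4.6, pandas 2.3.3 and matplotlib 3.10.9. Named genes were those past adjusted p 0.05, the 12 highest and 12 lowest with a symbol by agreement, the genes with the largest bound among those above background at 1 time, list members, and the 5 genes per exposure with the widest opposite difference. Some genes that these rules name are not reported here. The 24 genes and the 25 lists were chosen with earlier results of these data known. Alternatives were normexp (offset 50), quantile and median scaling, the series table, other filters, probes, priors, models and folds, and leaving out each pair. The number of arrays limits the precision.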

Additional observations from a re-analysis of the deposited data

Results flagged for a closer look

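Some genes had a difference of the opposite sign after 1 exposure. Differences between exposures were not tested, as each has 1 pair, and the value given is the smaller gap (log2) between that pair's difference and those of the other pairs. After 1000 ppm CO the gap was 3.89 for Pmch (melanin-concentrating hormone), 3.2 for Plac9, 3.12 for Avp (vasopressin), 2.8 for Oxt (oxytocin) and 2.73 for Prl3d4. After 3000 ppm CO it was 5.07 for Neurod2 and 4.97 for Slc17a7, which are a transcription factor and a glutamate transporter of cortical neurons, 4.28 for Glycam1, and 3.94 each for Rspo3 and Sostdc1. After 5% O2 it was 4.2 for Tac4, 3.66 for Ccdc42, 3.5 for Dmkn and 3.17 for Ano3. Some of these opposite signs rest on very small differences. Pmch differed by 0.02, -4.3 and -3.86, and Dmkn by -0.05, -0.03 and 3.47. The choroid plexus and ependyma list had pair medians that lay 2.42 apart between the highest and the lowest pair.

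The array at 12 h after 1000 ppm CO takes no part in the comparison of 2 h with 0 h, and some transcripts high at 2 h stood above air there. Of the 12 highest genes by agreement, 8 were below air on that array, and the share of all genes below air there is not given here. Relative to air, BF548548 was at 2.23, CB327764 at 2.25, TC608617 at 2.31, Zbtb16 at 1.72 and TC612592 at 3.49, each on 1 array. At 12 h after 3000 ppm CO they were at 1.48, 2.06, 1.72, 0.60 and 2.54 in that order. At 6 h after 1000 ppm CO, BF548548 minus air was 0.25 and TC612592 minus air was 0.34. At 6 h after 3000 ppm CO they were at 0.79 and 1.95.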

How the results depend on the processing

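The count of genes lower at adjusted p 0.05, which was 0, became 1 with normexp correction, 1 with no exposure block, 4 in the additive model over 12 arrays and 1 in that model with position, all by limma, and the count higher was 0 under every alternative run. The 13 genes at least 2-fold higher in all pairs became 5 with normexp, 24 with the filter on 3 of 6 arrays, 48 with no filter, 73 at 1.5-fold and 5 at 3-fold, and the 14 lower became 31, 41, 57 and 8 with those filters and folds. Leaving out 1 pair gave 18 to 83 higher and 23 to 117 lower, with 83 and 117 without 1000 ppm CO, 32 and 51 without 3000 ppm CO, and 18 and 23 without 5% O2. With the other background flag, 43 genes in place of 28 were above background only at 2 h, and 10 in place of 7 only at 0 h. Of 334 values for the 24 genes, 329 kept direction and side of the threshold, 5 came past it (those of Ccn1, Klf2 and Klf4 given above), and 0 reversed. The 24 genes were picked for 1 sign in all 3 pairs, so leaving out a pair could not reverse them. Other priors and the additive model leave the difference itself unchanged, and no gene passed in the main fit. Nothing is therefore read from these counts. Of 275 list medians, 252 moved by less than 1 SD of the pairs and 23 by more. The median of the vascular early list was 0.04 with no filter on dim probes, against -0.54. The limma adjusted p over alternatives was 0.0873 to 0.915 for Zbtb16, 0.00621 to 0.772 for Ccn1 and 0.0725 to 0.772 for Atf3. Fewer pairs leave fewer degrees of freedom, and other causes were not tested. The labels carry 1 array per exposure and time, so the exposure is the block, and no replicate number was used. Each point is 1 rat, and signal near background limits the dim probes.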

Other observations

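Other gene groups had smaller or mixed differences. Their counts are to be set beside the 22.2% of all genes that were higher and the 15.5% that were lower in all 3 pairs. Of 19 oxidative stress and heme genes, 5 were higher and 7 lower in all 3 pairs: the metallothionein Mt1 differed by 0.30, 0.76 and 0.56, catalase (Cat) by -0.55, -0.41 and -0.31, and heme oxygenase 1 (Hmox1), which releases CO from heme, by 0.11, 0.34 and 0.05. Of 16 inflammatory genes, 4 were higher and 3 lower, with Bcl3 at 0.63, 1.00 and 0.26 and the chemokine gene Ccl2 at 0.62, -1.21 and -2.57. Of 16 circadian clock genes, 5 were higher and 4 lower, with Npas2 at 0.24, 0.60 and 0.80 and Bhlhe40 at -0.26, -0.64 and -1.19. Of 14 TGF-beta, BMP and Notch targets, 4 were higher and 2 lower, with the Notch target Hes1 at -0.68, -0.66 and -0.54 and Id2 at 0.19, 0.41 and 0.64. Counts that leaving out a pair moved by over 1.5 times were 9 oxidative genes higher without 3000 ppm CO, 6 and 5 inflammatory genes lower without 1000 ppm CO and 5% O2, and 5 TGF-beta, BMP and Notch targets lower without 1000 ppm CO. In the deposited series table the clock genes higher in all 3 pairs numbered 2. None of these genes passed the limma test across all genes.

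Of 10 astrocyte markers, 4 were higher and 1 lower in all 3 pairs, and of 12 microglia markers 4 were higher and 0 lower. The same shares of all genes, 22.2% higher and 15.5% lower, stand beside these marker counts. Of 7 oligodendrocyte precursor markers, 1 was higher and 3 lower. Of 10 striatal interneuron markers, 0 were higher and 2 lower, among them Pvalb (-1.44, -2.16 and -0.63). Without the 1000 ppm CO pair, 7 microglia and 3 interneuron markers were higher and 4 astrocyte and 5 oligodendrocyte precursor markers were lower in both pairs left. Without the 5% O2 pair, 6 interneuron markers were lower. Cortical neuron markers had medians of -0.33, 0.86 and -0.37, and hypothalamic peptide genes had medians of 0.22, -0.50 and -0.81.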
